A study of Capra hircus with 2 samples.

Results

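The miR-30 family was followed in the mammary gland of dairy goats (Capra hircus) at peak and at late lactation through its 5 members miR-30a, miR-30b-5p, miR-30c, miR-30d and miR-30e. A member was the set of sequenced tags that held nucleotides (nt) 2 to 17 of its mature 5p sequence without mismatch. miR-30b-5p and miR-30c are identical over that stretch, so their tags were split by nt 18 and 19, and tags that gave no answer there were kept apart. The 5 members lay in 4 of the 7374 groups of tags that shared nt 2 to 17 and reached 1 read per 1000000 clean reads (RPM) in at least 1 library.

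Tissue was taken at day 90 after parturition for the peak lactation group and at day 210 for the late lactation group. The labels name no treatment or genotype, and the animals of both groups were dairy goats. Each stage gave 1 small RNA library made from a pool of 5 goats. The sequencing therefore holds no replicate check of any difference given here, and no p-value was computed. For miR-30b-5p, the paper also describes qRT-PCR assays of individual animals and reports a higher level at late lactation. Those assays were not analysed here, and the paper describes none for the other members. The 95% intervals cover counting error only, because PCR copies are not separate molecules and pooling hid how the goats varied.

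MicroRNAs are short RNAs cut from a hairpin precursor, in which the 5p arm and the 3p arm can each give a mature strand. The seed near the 5′ end of the mature strand pairs with target mRNAs and guides their repression, so miRNAs with the same seed are grouped as a family with overlapping predicted targets. The miR-30 members share their seed, arise from several hairpins, and are abundant in many epithelial tissues.

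The most abundant tag of each member is given 5′ to 3′ with the seed (nt 2 to 8) in capitals, because the members are told apart only by the letters after it. In every member it was the same tag in both libraries.
miR-30a: tGTAAACAtcctcgactggaagc
miR-30d: tGTAAACAtccccgactggaagc
miR-30e: tGTAAACAtccttgactggaagc
miR-30b-5p: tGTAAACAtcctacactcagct
miR-30c: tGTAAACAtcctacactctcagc
Counted from nt 1 at the 5′ end, miR-30d differed from miR-30a by T12C and miR-30e differed from miR-30a by C13T, each being the only difference over nt 1 to 22. miR-30b-5p and miR-30c shared their first 18 nt and first differed by A19T. A further miRNA with the same seed, miR-30f, differed from miR-30c by T9C and is given beside the members.
miR-30f: tGTAAACAccctacactctcagc

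The members moved apart between the stages. miR-30a, miR-30d and miR-30e, which hold nearly all reads of the family, were lower in late lactation, whereas miR-30b-5p and miR-30c were higher. Of the 5 members, 2 were at least 2-fold higher in late lactation and 2 were at least 2-fold lower. Among all 7374 groups, which were not limited to miRNAs, 40.0% were at least 2-fold higher and 26.8% at least 2-fold lower. A shift of this size was thus common in either direction.

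miR-30a, the most abundant member, had 819058 reads at peak and 136182 at late lactation. These were 43009 RPM (95% Poisson interval 42916 to 43102) and 18438 RPM (18341 to 18536), a level 2.33-fold lower in late lactation (log2 ratio −1.22, 95% interval −1.23 to −1.21). The counting intervals of the pair of libraries lay far apart. miR-30e, which differs from it by a single base, had 106951 and 17513 reads, or 5616 and 2371 RPM. Its level was 2.37-fold lower (log2 ratio −1.24, −1.27 to −1.22). The log2 ratios of miR-30a and miR-30e differed by 0.02 (−0.0025 to 0.0466), an interval that includes 0.

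miR-30d, the second member in abundance, had 248564 and 51226 reads, or 13052 RPM at peak and 6936 RPM at late lactation. It was 1.88-fold lower in late lactation (log2 ratio −0.91, −0.93 to −0.90) and did not reach 2-fold. Its decrease was smaller than that of miR-30a, with a difference of log2 ratios of −0.31 (−0.33 to −0.29) for miR-30a minus miR-30d. Thus the 3 abundant members lay on the same side, within 0.33 log2 units of each other.

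miR-30b-5p had 2436 reads at peak and 8600 at late lactation, although the late library held fewer reads in all. Its level went from 128 RPM (123 to 133) to 1164 RPM (1140 to 1189), which was 9.10-fold higher (log2 ratio 3.19, 3.12 to 3.25). miR-30c had 3094 and 3966 reads, or 162 RPM (157 to 168) and 537 RPM (520 to 554), and was 3.31-fold higher (log2 ratio 1.72, 1.66 to 1.79). Both members were higher in late lactation, but not to the same extent. Their log2 ratios differed by 1.46 (1.37 to 1.56). The tags that held nt 2 to 17 of both but could not be split had 6 and 41 reads, too few to change either level.

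Between the sides the gap was wide. The log2 ratio of miR-30b-5p exceeded that of miR-30e by 4.43 (4.36 to 4.50). For miR-30a minus miR-30b-5p the difference was −4.41 (−4.47 to −4.34). miR-30f, which carries the miR-30c sequence apart from nt 9, had 1881 and 2154 reads, or 98.8 and 292 RPM. It was 2.95-fold higher in late lactation (log2 ratio 1.56, 1.47 to 1.65), on the side of miR-30b-5p and miR-30c.

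**Figure D1:**
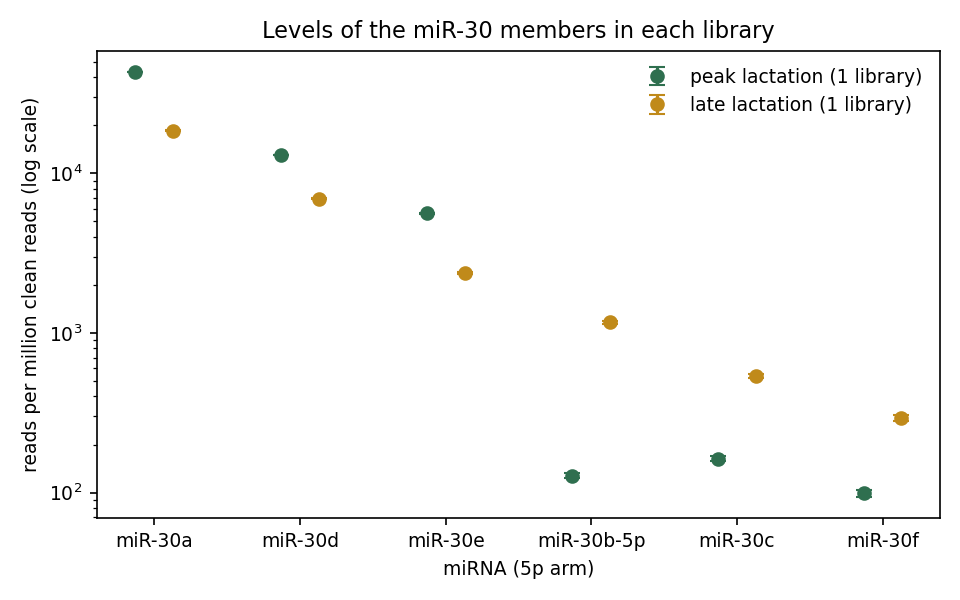
Level of each member and of miR-30f in RPM (log axis), with 1 point per library and 95% Poisson intervals, many of them smaller than the point. miR-30a, miR-30d and miR-30e are the most abundant and are lower in late lactation, whereas miR-30b-5p, miR-30c and miR-30f lie lower on the axis and are higher in late lactation.

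**Figure D2:**
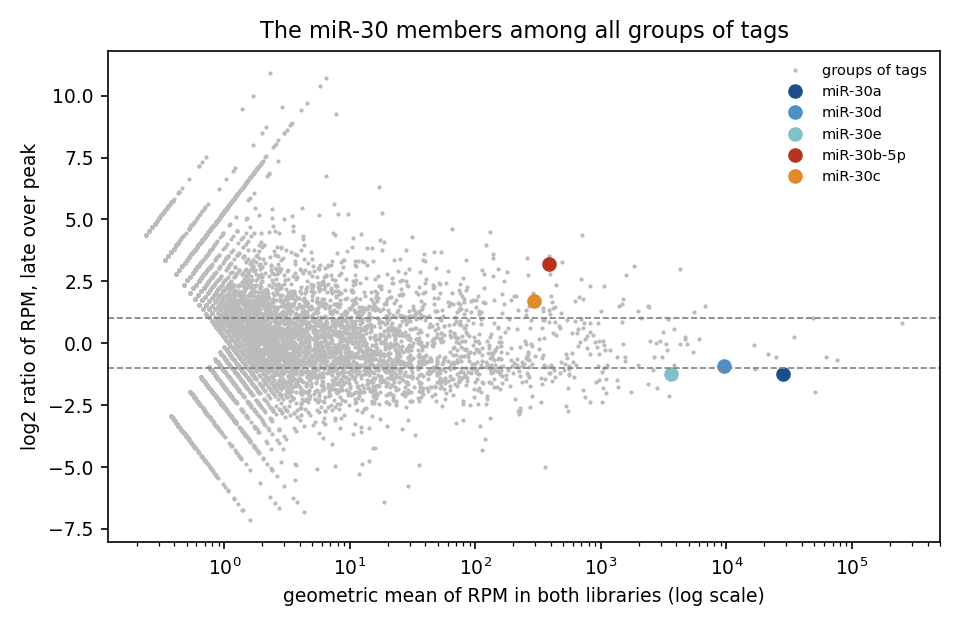
Log2 ratio of RPM (late over peak lactation) against the geometric mean RPM of both libraries (log axis) for the 7374 groups of tags (grey, a count of 0 set to 3 reads) and the 5 members. The dashed lines mark a 2-fold difference, and miR-30d lies just inside the lower one.

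Summed over the 5 members and the tags shared by miR-30b-5p and miR-30c, the family had 1180109 reads at peak and 217528 at late lactation. These were 6.20% and 2.95% of the clean reads, a 2.10-fold lower level (log2 ratio −1.07, −1.08 to −1.07). The sum followed miR-30a, which gave 69.4% of the family's reads at peak and 62.6% at late lactation. Of all reads whose tag carried the seed at nt 2 to 8, the 5 members held 99.1% and 98.1%, so other tags added little to the reads with this seed.

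Within the family the makeup changed. miR-30d gave 21.1% of the family's reads at peak and 23.5% at late lactation, and miR-30e gave 9.06% and 8.05%. The share of miR-30b-5p was 0.206% (0.198 to 0.215) at peak and 3.95% (3.87 to 4.04) at late lactation. The share of miR-30c was 0.262% (0.253 to 0.272) and 1.82% (1.77 to 1.88). Together, miR-30a, miR-30d and miR-30e held 99.5% of the family's reads at peak and 94.2% at late lactation. In RPM, these 3 summed to 61677 and 27745, while miR-30b-5p and miR-30c with their shared tags summed to 291 and 1707. The gain of the scarce members was thus small beside the loss of the abundant ones.

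The order of levels was miR-30a, miR-30d, miR-30e, miR-30c and miR-30b-5p in peak lactation. In late lactation miR-30b-5p stood above miR-30c, and the other positions were as in peak lactation. No neighbours in either order had overlapping counting intervals. The span of levels narrowed: miR-30a had 336 times the RPM of the lowest member in peak lactation and 34.3 times that of the lowest in late lactation. As mature miRNAs have nearly the same length, these levels need no correction for length, but ligation and amplification can favour 1 sequence over another, so ratios between members are less certain than ratios of 1 member between libraries.

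The members with 1 base between them could in principle lend reads to each other through sequencing errors. At nt 12, where miR-30a and miR-30d differ, tags with a base of neither member had at most 192 reads (T12A) in peak lactation, or 0.0772% of the reads of miR-30d. At nt 13, where miR-30a and miR-30e differ, C13A had 639 reads at peak and 59 at late lactation, or 0.597% and 0.337% of the reads of miR-30e. Tags with a base of neither at nt 19, where miR-30b-5p and miR-30c part, had at most 2 reads in either library. Miscalls to a base of neither member were thus small beside each member's own reads. A miscall from the base of 1 member to that of the other, such as T12C or C13T, is counted as the other member. The number of such miscalls cannot be seen here.

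The tags of each member were also taken one by one. Of all 26175 tags with at least 1 RPM in a library, 30.7% were at least 2-fold higher and 40.1% at least 2-fold lower in late lactation. For miR-30b-5p, 18 of 18 such tags were at least 2-fold higher, and for miR-30c 14 of 16 were higher and 1 was lower. Since 1 RPM in either library sufficed, tags of these scarce members could pass through late lactation alone, where they were high. The miR-30b-5p tags of rank 3 and 4 had 18 and 11 reads at peak, below 1 RPM, against 247 and 174 at late lactation. The filter thus favoured the higher direction in both members, and their counts are no separate support for it. The tags of the abundant members were mixed. For miR-30a, 34 of 79 tags were at least 2-fold lower and 17 were higher, for miR-30e 10 of 34 were lower and 6 higher, and for miR-30d 9 of 47 were lower and 11 higher. The tags of a member overlap in sequence and are no replicates of each other, so these counts only describe how the reads were spread.

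The 5′ end, which sets the seed, was nearly uniform. Tags that began at nt 1 made up 96.6% or more of the reads of every member in both libraries. Only miR-30e had more than 1% of its reads beginning at nt 2, with 3.18% (3.07 to 3.28) at peak and 3.04% (2.79 to 3.31) at late lactation. A start at nt 2 shifts the seed by 1 base, and the overlapping intervals show no stage difference in its use at this depth.

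The 3′ end differed between the libraries in all 5 members. The tag of miR-30a printed above made up 74.6% of the reads of miR-30a at peak and 57.5% at late lactation. For miR-30e the share of the printed tag was 76.1% and 45.4%, and for miR-30d 72.2% and 58.4%. For miR-30c it was 72.4% and 29.8%. These 4 tags are 23 nt long and end in C, and in each member the forms of 21, 22 and 24 nt took a larger share in late lactation. Not every other form gained. The 19-nt tag of miR-30a, which ends in G, had 65148 and 5884 reads (log2 ratio −2.10), and its share went from 7.95% to 4.32%. The 19-nt tag of miR-30e had a log2 ratio of −1.24, with shares of 4.28% and 4.30%. The main forms of miR-30c are given because its ratio depends on them most.
miR-30c, 23 nt: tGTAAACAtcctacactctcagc
miR-30c, 24 nt: tGTAAACAtcctacactctcagct
miR-30c, 22 nt: tGTAAACAtcctacactctcag
miR-30c, 21 nt: tGTAAACAtcctacactctca
The 23-nt tag of miR-30c had 2240 reads at peak and 1183 at late lactation, with a log2 ratio of 0.45. The 24-nt tag had 394 and 1070 reads (log2 ratio 2.81), and the 22-nt tag had 123 and 726 (log2 ratio 3.93). The higher level of miR-30c in late lactation thus rested mainly on its forms other than the 23-nt tag.

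In miR-30b-5p the printed tag is 22 nt long, and its share was 58.9% at peak and 74.5% at late lactation. The form that lacks its last base held 34.5% and 12.1%.
miR-30b-5p, 22 nt: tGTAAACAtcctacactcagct
miR-30b-5p, 21 nt: tGTAAACAtcctacactcagc
The 22-nt tag had 1436 and 6405 reads (log2 ratio 3.52), and the 21-nt tag had 841 and 1038 (log2 ratio 1.67). It is the shorter form that ends in C here, so that in all 5 members the form ending in C lost share. Reads that ended in C made up 75.2% and 58.1% of miR-30a, 35.7% and 13.2% of miR-30b-5p, and 74.1% and 32.7% of miR-30c. They made up 72.6% and 59.0% of miR-30d and 78.4% and 46.8% of miR-30e. Among the reads of 18 to 30 nt outside the family the share ending in C was 11.6% at peak and 15.6% at late lactation. That share is pooled over all other tags, so it also shifts with which tags are abundant. It is therefore not a like comparison for the forms within a member.

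**Figure D3:**
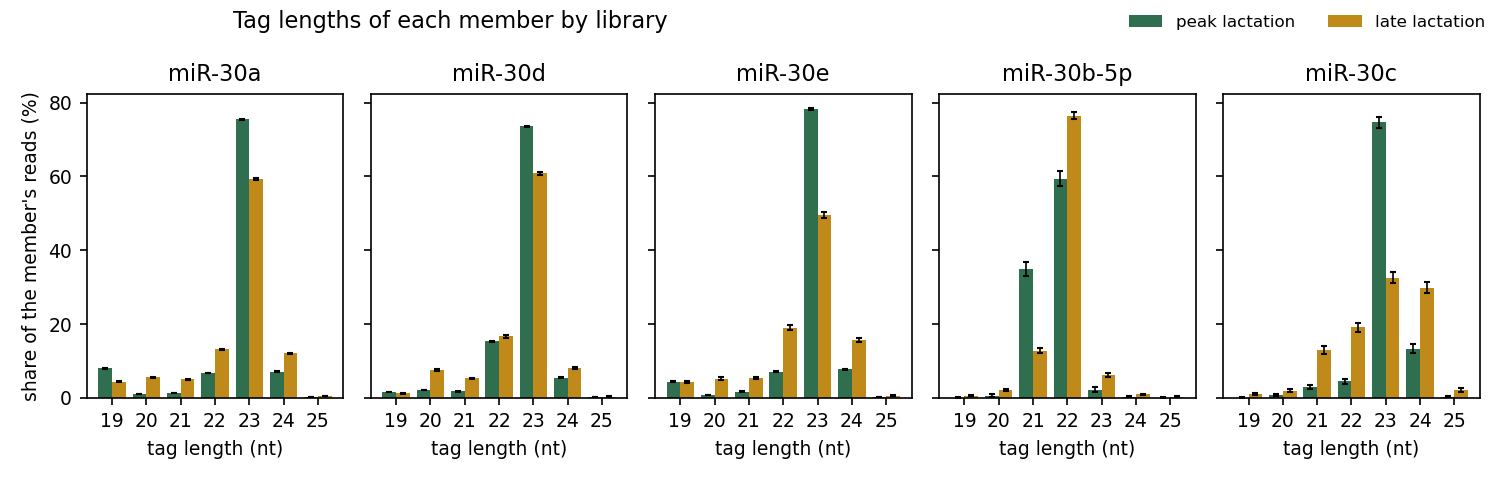
Share of each member's reads (%) by tag length from 19 to 25 nt in peak and late lactation, with 95% Clopper-Pearson intervals. The 23-nt bar is lower in late lactation in miR-30a, miR-30d, miR-30e and miR-30c, whereas in miR-30b-5p the 21-nt bar is lower and the 22-nt bar higher.

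The tag that led in peak lactation was followed in 427 other groups with at least 100 RPM in 1 library and 100 reads in each. Its share was lower in late lactation in 59.3% of them, with a median change of −1.48 percentage points. Where this tag ended in C (118 groups), its share was lower in 53.4%, with a median change of −0.86 percentage points. Choosing the tag by its peak reads favours a lower share in late lactation. The printed tags of the members led in both libraries, so these groups are not a like background. The mean tag length was shorter in 82.9% of the 427 groups, with a median change of −0.48 nt. Whether the tissue, the pools or the making of the libraries set the 3′ ends was not tested, and with 1 library per stage these cannot be told apart.

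The ratio of each member was therefore taken separately for tags that began at nt 1 and ended at a given nt from 20 to 24. At nt 23, where most reads of the abundant members ended, the log2 ratio was −1.57 for miR-30a, −1.19 for miR-30d and −1.93 for miR-30e, against 0.50 for miR-30c and 4.29 for miR-30b-5p. At nt 22 it was −0.22 for miR-30a and −0.80 for miR-30d but 0.59 for miR-30e. At nt 20 it was above 0 in all 5 members, at 1.14 for miR-30a, 0.93 for miR-30d and 1.64 for miR-30e, forms that held 1.08%, 2.08% and 0.73% of the reads starting at nt 1 in peak lactation. The direction of the abundant members therefore depended on the 3′ end chosen. The order of the sides did not: at each of the 5 ends miR-30b-5p and miR-30c had higher ratios than miR-30a, miR-30d and miR-30e. Some of these ratios rest on few peak reads. miR-30b-5p had 11 at nt 20, 54 at nt 23 (2.26% of its reads starting at nt 1) and 6 at nt 24, and miR-30c had 23 at nt 20.

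**Figure D4:**
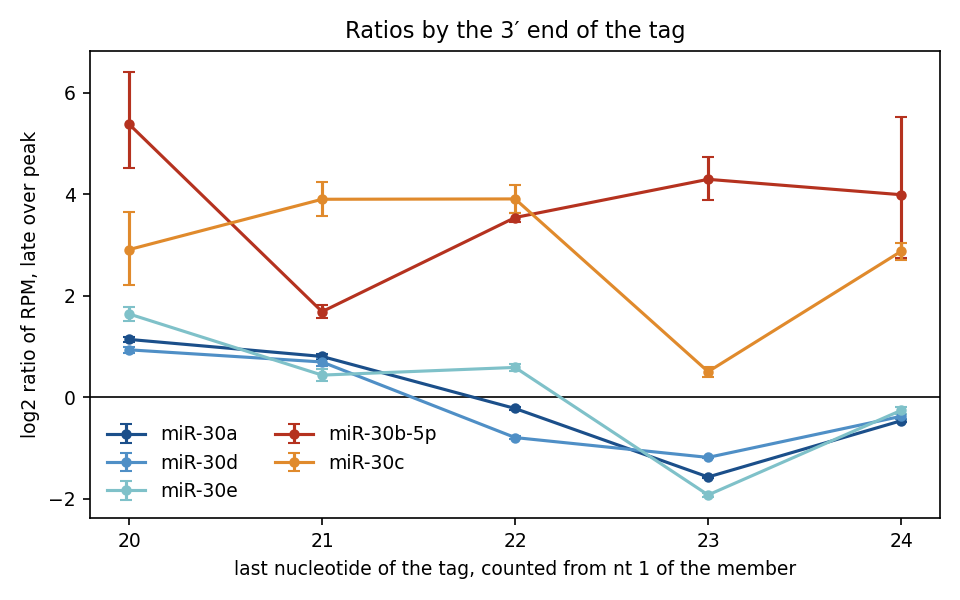
Log2 ratio of RPM (late over peak lactation) for tags from nt 1 to the given last nt, with 95% exact intervals and 1 line per member. The lines of miR-30b-5p and miR-30c lie above those of miR-30a, miR-30d and miR-30e at every end from nt 20 to nt 24.

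Tags longer than any mature miRNA took a larger share of the less abundant members. Tags longer than 30 nt had 112 reads in miR-30c (3.62% of its reads) and 61 in miR-30b-5p (2.50%) in peak lactation, against 2 reads (0.0504%) and 22 reads (0.256%) in late lactation. In miR-30a they had 139 and 19 reads, or 0.0170% and 0.0140% of its reads. Among all reads of the libraries, such tags held 0.331% and 0.135%. Restricted to tags of 19 to 24 nt, the log2 ratios were 3.21 for miR-30b-5p and 1.74 for miR-30c, close to those with all tags.

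The 3p strands of the same hairpins were compared next, since both arms of a hairpin come from 1 precursor. They were found as tags that could pair with the 5p strand of a hairpin and are shown for the pair of hairpins whose 3p strand was abundant and for miR-30b.
miR-30a-3p: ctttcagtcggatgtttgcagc
miR-30e-3p: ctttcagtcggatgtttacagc
miR-30b-3p: ctgggaggtggatgtttacttc
miR-30a-3p had 43357 reads at peak and 17867 at late lactation, or 2277 and 2419 RPM (log2 ratio 0.09, 0.06 to 0.11). miR-30e-3p had 10782 and 4825 reads, or 566 and 653 RPM (log2 ratio 0.21, 0.16 to 0.26). Neither 3p strand was lower in late lactation, although the 5p strands of both hairpins were more than 2-fold lower.

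The other 3p strands were scarce. miR-30d-3p had 161 and 53 reads (log2 ratio −0.24, −0.71 to 0.22), miR-30b-3p had 29 and 9 (−0.32, −1.59 to 0.80), and miR-30c-1-3p had 36 and 10 (−0.48, −1.66 to 0.56). Their intervals include 0, and a difference could not be detected at this depth. A strand that carries the name miR-30c-2-3p had 1682 and 552 reads (−0.24, −0.38 to −0.10). With all their tags, none of the 6 strands was 2-fold different in either direction, but miR-30c-1-3p had a log2 ratio of −1.12 when only tags that began at nt 1 of its leading tag were counted.

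The ratio of 5p to 3p reads needs no scaling between libraries, because both counts come from the same library. It was 18.9 at peak and 7.62 at late lactation for miR-30a, a 2.48-fold decrease (log2 change −1.31, −1.34 to −1.28). For miR-30e it was 9.92 and 3.63 (log2 change −1.45, −1.50 to −1.40). For miR-30d it was 1544 and 967 (−0.68, −1.13 to −0.20). In contrast, it was 84.0 and 956 for miR-30b-5p (3.51, 2.39 to 4.77), and 85.9 and 397 for miR-30c against miR-30c-1-3p (2.21, 1.16 to 3.38). The more abundant strand named miR-30c-2-3p (1682 and 552 reads) was left out of this ratio. Which of these 3p strands shares a hairpin with the miR-30c reads was not tested, so the value may not be the balance of 1 hairpin. The log2 change of the balance equals the 5p log2 ratio minus the 3p log2 ratio. As each 3p ratio was smaller in size than its 5p ratio, the change had the sign of the 5p ratio by construction. It is therefore no separate support for the direction of the 5p strands. The values of miR-30b-5p and miR-30c rest on few 3p reads. Within either library the ratios of 5p to 3p did not part the members by side. miR-30d had the highest ratio at peak. At late lactation its ratio (967) and that of miR-30b-5p (956) rest on 53 and 9 3p reads and are not separated at this depth.

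**Figure D5:**
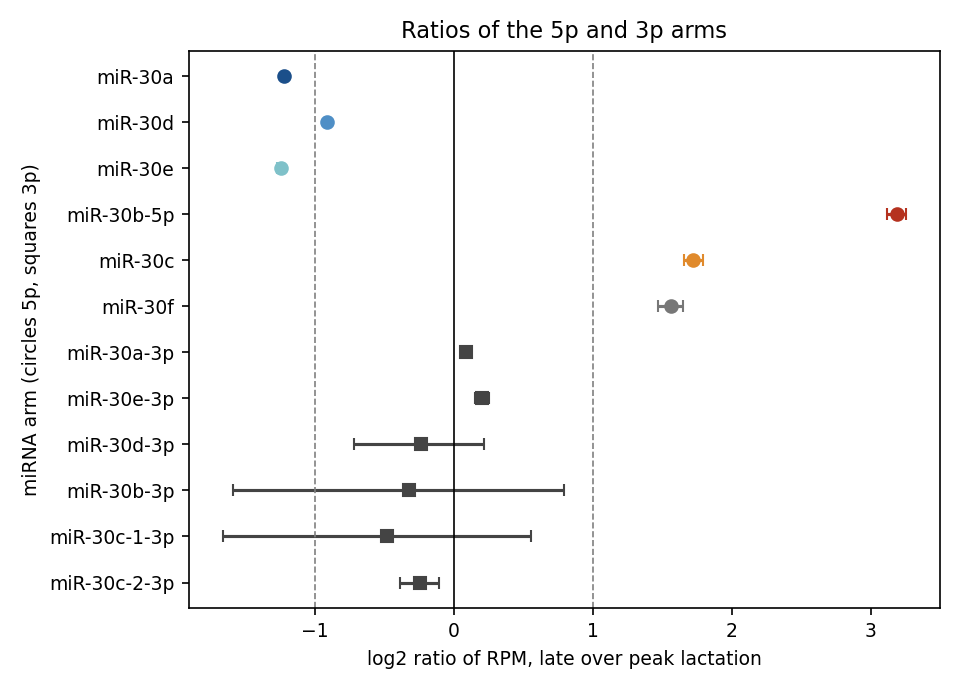
Log2 ratio of RPM (late over peak lactation) of the 5p strands (circles) and the 3p strands (squares) with 95% exact intervals. The dashed lines mark 2-fold, and the points of the 3p strands all lie between them while the 5p strands lie on both sides.

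The hairpins of the family are neighbours in pairs. In the RefSeq gene table of the goat assembly ARS1.2, MIR30E is next to MIR30C, MIR30B is next to MIR30D, and MIR30F is next to MIR30A. In each pair the neighbours moved apart in these libraries. miR-30e was lower (log2 ratio −1.24) and miR-30c higher (1.72), miR-30d was lower (−0.91) and miR-30b-5p higher (3.19), and miR-30a was lower (−1.22) and miR-30f higher (1.56). Whether gene position or sequence bears on these ratios was not tested. Members on the same side were alike in sequence. miR-30a, miR-30d and miR-30e share all but nt 12 and 13 of their printed tags, and miR-30b-5p, miR-30c and miR-30f share nt 1 to 18 apart from nt 9.

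Other seeds held by several groups of tags were used to see how far groups with 1 seed part. Among groups of at least 100 RPM, 8 seeds were held by at least 3 groups. Counted as for the other seeds, by groups of tags that share nt 2 to 17 (miR-30b-5p and miR-30c as 1 group, and miR-30f included), the 5 groups with the miR-30 seed ranged from −1.24 to 2.59. This range of 3.83 was the largest of the 8, against 3.10 for the next and a median of 1.31 for the other 7. With miR-30b-5p and miR-30c apart, the 5 members ranged over 4.43. The miR-30 seed was also the only 1 of the 8 with groups at least 2-fold higher and groups at least 2-fold lower. With groups of at least 10 RPM, however, the same 5 groups ranked 10 of 37, and 7 seeds had both directions.

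The 7 groups with the seed GAGGTAG, which is that of let-7 and miR-98, ranged from −0.68 to 0.63, and none reached 2-fold. The 6 groups with the seed AGCAGCA, that of miR-15 and miR-16, ranged from 0.27 to 3.38, all above 0. The seed of miR-29 was held by fewer than 3 groups of this level. The miR-30 range was thus wider than that of let-7, a family whose members likewise differ by few bases.

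The groups outside the family with the log2 ratio nearest to that of miR-30b-5p were sought among 439 groups of at least 100 RPM. They are given by their leading tags, since no table of mature sequences was used. The compared groups were not limited to miRNAs, and the RNA from which an unnamed group comes was not tested.
miR-375 by its primer: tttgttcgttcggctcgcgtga
miR-145 by its counts: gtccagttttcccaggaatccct
unnamed: gtgaacctgcggaaggatcatta
The first, whose tag holds the primer of miR-375, an epithelial and endocrine miRNA, had 623 and 5416 RPM (log2 ratio 3.12). The second, whose counts are those of miR-145, a miRNA of smooth muscle and stroma, had 157 and 1528 RPM (log2 ratio 3.28). The third had 12.4 and 125 RPM (log2 ratio 3.33). These groups are named for the size of their ratio in the same pair of libraries, which says nothing of a shared origin.

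The nearest groups to miR-30a were less abundant than it and carry no name here, and they need not be miRNAs.
nearest to miR-30a: ctgacctatgaattgacagc
next: tgaacagcagttgaacatg
next: ggagaaccgcaggaacgccgagcgagcgc
Their log2 ratios were −1.21, −1.24 and −1.20, at 720, 161 and 201 RPM in peak lactation.

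Because bulk tissue holds several cell types, the markers of these were read beside the family. Fewer cells of a type and less RNA per cell cannot be told apart in such samples. Of 8 epithelial markers 5 could be named by their counts, with a summed level of 132083 RPM at peak and 46588 RPM at late lactation. Their log2 ratios ranged from −1.97 (miR-148a) to 0.97 (miR-141). miR-375 is also on the epithelial list but was not named by its counts, so this sum and range leave it out. The group that holds its primer went the other way from miR-148a, with 623 and 5416 RPM (log2 ratio 3.12). Of 4 stromal markers 2 could be named, miR-143 and miR-145, with sums of 189194 and 332734 RPM and log2 ratios of 0.81 and 3.28. The endothelial marker miR-126 had a log2 ratio of −1.05. The blood markers (2 of 3 named) summed to 1882 and 3207 RPM, with a log2 ratio of −0.61 for miR-486 and levels of 1461 and 2930 RPM for miR-451, and the immune markers (3 of 4 named) summed to 1177 and 1442 RPM with log2 ratios from −0.43 (miR-155) to 3.67 (miR-223). Of 5 markers of other tissues only miR-1, a muscle miRNA, could be named, with 2671 and 1468 RPM (log2 ratio −0.86). The epithelial sum was mostly miR-148a, with 100858 RPM at peak, and the other epithelial markers did not move as 1 group: miR-200c had a log2 ratio of −1.05, miR-200a −0.27 and miR-200b −0.01. The part of cell makeup in these ratios was not tested.

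The libraries themselves differed. The peak library held 19044002 clean reads and the late library 7385833, so that 1 read stood for 0.0525 and 0.135 RPM and a count of 0 allowed up to 0.158 and 0.406 RPM. Of the high-quality reads, the share that was clean was 98.5% at peak and 73.9% at late lactation, and 5′ adaptor contaminants were 0.0494% and 14.0%. Each of the 5 members was far above these limits in both libraries, with at least 2436 reads. The part of the difference in library quality in the ratios was not tested.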

How the data were processed

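Small RNA of 18 nt and longer from pooled mammary gland was sequenced in 1 library per stage. The authors removed low-quality reads, adaptors and short inserts, collapsed identical reads and deposited the counts of each distinct tag, not normalized, with the number of reads kept at each filtering step. The tools of these steps are not named in the study's methods. The authors' mapping, annotation and qRT-PCR were not analysed here.

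Counts were divided by the clean reads of the library (RPM). Members were found by nt 2 to 17, and names were given through the study's table of known miRNAs, as the group with the nearest raw counts (gaps of 0.205% to 5.76% for the 5 members). Cell type markers were named in the same way when the gap was at most 5% and the reads were at least 1000, so markers without a name are not known to be absent. 3p strands were sought among tags that pair with a member's nt 4 to 10 and were named with gaps of up to 22.9%, under a limit of 25% chosen after the data were seen, so the names of scarce strands are uncertain. Mature sequences of a reference were not used here. Groups of tags that shared nt 2 to 17 took their place as the background, which was therefore not limited to miRNAs. A group or tag was tested at 1 RPM or more in a library and called at 2-fold, with a count of 0 set to 3 reads. Intervals were exact Poisson for levels, Clopper-Pearson for shares and exact conditional for ratios. No test across animals was possible with 1 library per stage.

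The members, lists and the named groups (the members, their 3p strands, miR-30f, the 3 nearest ratios, let-7, miR-29, miR-15 and miR-16, and markers) were chosen with earlier results of these data known. Alternatives were TMM factors from edgeR 4.0.16, median-ratio factors from DESeq2 1.42.0, other totals, other matches of tags and other filters. The single forms and the count of the miR-30 seed by groups of tags were added after seeing the data. Python 3.11.15, numpy 2.4.6, scipy 1.17.1, matplotlib 3.10.9 and R 4.3.3 were used.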

Additional observations from a re-analysis of the deposited data

How the results depend on the processing

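No paired analysis was possible because each stage had 1 library, and for the same reason no replicate could be left out. The alternatives that did not take single forms were 4 scalings and 5 matches, with 3 further ways to count miR-30b-5p or miR-30c. Most of the matches counted only part of a member's tags. Under these alternatives the directions of all 5 members and the counts of 2 members higher and 2 lower were as in the report. With median-ratio factors the log2 ratios were −1.25 for miR-30a, −0.94 for miR-30d, −1.27 for miR-30e and −1.10 for the family. With the 10 most abundant tags of each library left out of the totals they were −1.14, −0.83, −1.16 and −0.99, with 3.27 for miR-30b-5p and 1.81 for miR-30c, so that the family sum no longer reached 2-fold. With nt 2 to 20 they were −1.17 for miR-30a and −1.03 for the family, and with nt 7 to 22 it was 3.58 for miR-30b-5p. Other choices, made after seeing the data, took single forms. The most abundant tag of each member alone gave −1.60 for miR-30a, −1.22 for miR-30d, −1.99 for miR-30e, 3.52 for miR-30b-5p and 0.45 for miR-30c, with 1 member higher and 3 lower. Tags from nt 1 to nt 22 alone gave −0.22, −0.80, 0.59, 3.54 and 3.91 in the same order, which turned the direction of miR-30e and left 2 members higher and 0 lower. Tags from nt 1 to nt 20 alone gave 1.14, 0.93, 1.64, 5.38 and 2.91, which turned the direction of miR-30a, miR-30d and miR-30e and left 4 higher and 0 lower. The cause was not tested. With no filter, 65.1% of groups were higher and 1.07% lower, since a count of 0 sets the bound there, and with at least 100 RPM 26.4% and 32.0%. The alternatives that need a reference table of mature miRNAs were not run. Depth limits the 3p strands of miR-30b, miR-30c-1 and miR-30d most.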
